A study of Mus musculus with 17 samples.

Results

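Interferon gamma and the cytokines, receptors and transcription factor that act upstream of it were followed in mouse spleen after injection of immunostimulatory RNA. The members were the 9 lines of the deposited expression table whose gene name is Ifng, Il12a, Il12b, Il12rb1, Il12rb2, Il15, Il18, Il27 or Tbx21, out of 38340 named genes. All 9 members passed the filter on low values, as did 14010 genes in all. RNA sequencing covered 17 libraries from mice whose strain is labelled CB57BL/6NCrl: 3 for each of the agents SLR10, SLR14, poly(I:C) and pppNS, 2 after the jetPEI vehicle, and 3 from naive, untreated mice. The series concerns ligands of RIG-I, a cytosolic sensor of viral RNA, and SLR10 and SLR14 are 2 such ligands. Per the labels, in vivo-jetPEI, a polyethylenimine reagent for delivering nucleic acids, carried the SLRs (N/P 8), and each mouse received 25 µg of RNA in 200 µl by the intravenous route. The same sentence stands with every library, vehicle and naive included, so the dose and route of poly(I:C) and pppNS are not given apart. Poly(I:C) is a man-made double-stranded RNA. What pppNS is, the time between injection and collection, and the age and sex of the mice are not given in the sources used here. Nothing in the labels says that the libraries of a group came from separate mice, so the p-values measure the spread between these libraries.

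Interferon gamma, encoded by Ifng, is made mainly by natural killer cells and T cells and acts on most nucleated cells through the receptor chains Ifngr1 and Ifngr2. Dendritic cells and macrophages drive its production by releasing IL-12, which pairs the p35 chain (Il12a) with the p40 chain (Il12b), and IL-18, IL-15 and IL-27. IL-12 signals through the receptor chains Il12rb1 and Il12rb2, and T-bet, encoded by Tbx21, is the transcription factor that binds the Ifng locus and defines the type 1 programme.

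Libraries held 26.5 to 42.8 M reads (median 30.9 M), of which 15.8 to 29.6 M fell in named genes. Levels are CPM, read counts scaled as the authors normalised them. Over all lines a library summed to 696096 to 1484240 CPM, so library size alone did not set the scale. The sums were 696315 and 696096 CPM with vehicle and 726635 to 748327 CPM in naive spleen. They were 1058768 to 1275805 CPM with SLR10, SLR14 and poly(I:C), and 836415, 782210 and 1484240 CPM with pppNS. A single read was worth 0.0175 to 0.0431 CPM, and 3 reads, taken as the floor, 0.0525 to 0.129 CPM. The member with the fewest reads was Ifng in a naive library, with 27 reads. The markers of B cells (10 of 10), T cells (12 of 12) and monocytes and macrophages (11 of 11 in the table) were above the floor in every group of these spleens. Summed erythroid markers (14 of 15 in the table) set 4 libraries apart: SLR14 replicate 2 at 32400 CPM, poly(I:C) replicates 2 and 3 at 39500 and 20600 CPM, and pppNS replicate 3 at 73600 CPM, against 2970 to 12800 CPM in the others. Since these are bulk samples, fewer cells of a type and less RNA per cell cannot be told apart.

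The start regions of 4 members are shown because these genes responded in different ways: Ifng and Il12rb2 rose with 3 of the 4 agents, Il12b rose with all 4, and Il12a did not pass the test against vehicle with any. Each line gives the 250 bases before the annotated start, 5′ to 3′ on the gene's strand, from RefSeq (GRCm38.p6), at chr10:118440796-118441045 (plus strand) for Ifng, chr6:67376189-67376438 (minus strand) for Il12rb2, chr3:68690394-68690643 (plus strand) for the first of the 2 listed starts of Il12a, and chr11:44399813-44400062 (plus strand) for Il12b.
Ifng: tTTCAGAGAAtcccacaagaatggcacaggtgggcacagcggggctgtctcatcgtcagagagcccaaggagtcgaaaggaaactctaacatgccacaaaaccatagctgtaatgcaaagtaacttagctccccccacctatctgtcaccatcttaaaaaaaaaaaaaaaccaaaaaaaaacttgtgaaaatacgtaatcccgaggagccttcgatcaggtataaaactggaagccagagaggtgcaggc
Il12rb2: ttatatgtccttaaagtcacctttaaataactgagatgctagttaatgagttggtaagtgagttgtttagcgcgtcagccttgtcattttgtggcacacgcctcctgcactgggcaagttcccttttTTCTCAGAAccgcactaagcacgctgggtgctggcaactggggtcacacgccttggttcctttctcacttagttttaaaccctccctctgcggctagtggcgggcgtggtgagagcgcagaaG
Il12a: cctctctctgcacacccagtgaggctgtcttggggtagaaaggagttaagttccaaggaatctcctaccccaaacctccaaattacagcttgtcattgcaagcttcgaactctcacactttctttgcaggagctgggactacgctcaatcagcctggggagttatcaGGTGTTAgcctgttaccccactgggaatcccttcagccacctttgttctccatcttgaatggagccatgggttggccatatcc
Il12b: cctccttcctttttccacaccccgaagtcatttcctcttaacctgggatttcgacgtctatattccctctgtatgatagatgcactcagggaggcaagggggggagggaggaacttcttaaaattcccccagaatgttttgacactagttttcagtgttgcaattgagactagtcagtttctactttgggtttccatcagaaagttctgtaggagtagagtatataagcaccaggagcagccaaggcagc
Capitals mark matches to 4 motifs searched on both strands from 250 bases before to 50 bases after the start. These were the core of an interferon-stimulated response element (GAAA, any 2 bases, GAAA), TTCNNNGAA (the gamma-activated site), the NF-kB consensus, and GGTGTNA (a T-box half-site). The gamma-activated site matched in Ifng, at positions -249 to -241 from the start, and in Il12rb2, at -123 to -115. In Il12rb2 the last capital is the first base of an NF-kB consensus match that runs from -1 to 8. The T-box half-site matched in Il12a at -83 to -77, and no motif matched in Il12b. Nor did any match in the start regions not shown, which are those of Tbx21 and Il18 and the second start of Il12a. Tbx21 rose with the same 3 agents as Ifng and Il12rb2. Among 32851 promoters of the same length, 8.3% hold the gamma-activated site, 10.2% the T-box half-site, 4.51% the NF-kB consensus and 3.44% the response element core. These letter matches describe the window and do not show binding. The promoter table matched 6 of the 9 members, and Il12rb1, Il15 and Il27 have no entry in it.

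**Figure D1:**
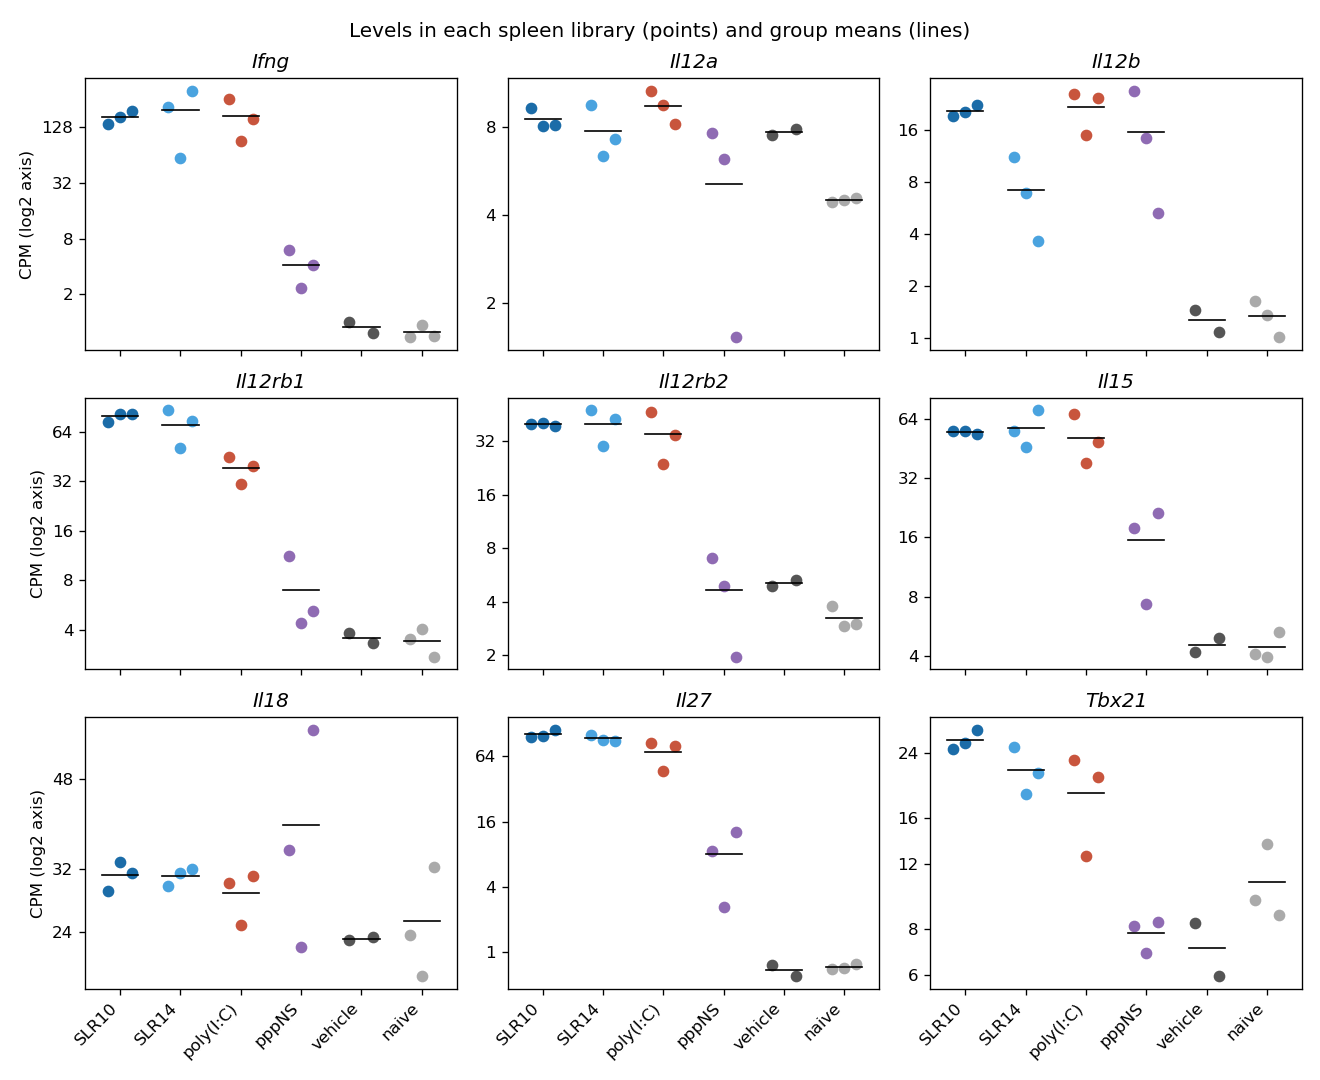
Level of each of the 9 genes in CPM on a log2 axis, 1 point per spleen library (replicates 1 to 3 from left to right within a group) and a line at the group mean. Ifng, Il27, Il15, Il12rb1 and Il12rb2 sit far above vehicle with SLR10, SLR14 and poly(I:C) and much lower with pppNS, while Il12b is high with pppNS too and Il18 and Il12a change little.

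Against vehicle, 7 members rose with SLR10, and these 7 also rose after SLR14 and after poly(I:C): Ifng, Il12b, Il12rb1, Il12rb2, Il15, Il27 and Tbx21 (limma, Benjamini-Hochberg adjusted p under 0.05 over all genes tested). Among all tested genes, 20.2% were called higher and 19.2% lower with SLR10, 19.3% and 19.4% with SLR14, and 18.6% and 17.3% with poly(I:C). The median log2 change of the 9 members was 3.45, 2.83 and 3.25, beside -0.01, 0.04 and 0.07 over all genes tested. With pppNS, 3 of 9 members rose (Il12b, Il15 and Il27) where 2.96% of all genes were called higher and 1.35% lower, and the median of the members was 0.77 beside 0.01. No member fell against vehicle with any agent. The 4 comparisons share the 2 vehicle libraries and are given side by side. With only the groups compared in the model, or without vehicle replicate 2, 0 of 9 members were called with pppNS, and with naive and vehicle libraries as 1 control 5 were called. Without pppNS replicate 3, the library with the most erythroid transcript, 2 members rose with pppNS (Il12b and Il27).

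Per kilobase of exon, the scale on which genes can be compared, the vehicle means ran from Il18 (22.5 CPM per kb) and Il12a (5.6) down to Ifng (0.735), Il27 (0.666) and Il12b (0.646). With SLR10 the order was led by Ifng (135 CPM per kb) and Il27 (101), followed by Il18 (30.2), Il12rb1 (27.7) and Il15 (26.0), and Il12a (6.18) was the lowest. The members at the bottom of the control order thus held the top places with SLR10, apart from Il12b (10.5).

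Ifng, on chromosome 10 (118441046 to 118445892, plus strand, GRCm38), went from about 1 CPM in controls to over 50 CPM in every SLR10, SLR14 and poly(I:C) library. Its levels in replicates 1 to 3 were 137, 162 and 189 CPM with SLR10 and 207, 59.7 and 313 CPM with SLR14. With poly(I:C) they were 256, 90.2 and 155 CPM, and with pppNS 6.03, 2.36 and 4.12 CPM. Vehicle libraries had 1.0 and 0.775 CPM and naive libraries 0.691, 0.945 and 0.716 CPM. Every SLR10, SLR14 and poly(I:C) library was far above every pppNS library, and every pppNS library was above every vehicle and naive library. The log2 change against vehicle was 6.87 ± 0.56 (SE) with SLR10 (adjusted p = 6.28e-07), 6.83 ± 0.56 with SLR14 (6.35e-07) and 6.79 ± 0.56 with poly(I:C) (7.26e-07). Because the control level is close to the 0.5 CPM added before taking logs, these values are drawn toward 0. The mean was 183-fold higher with SLR10 as a plain ratio of CPM. With pppNS the log2 change of 1.68 ± 0.56 (95% interval 0.47 to 2.88) did not pass (adjusted p = 0.117), although it did with DESeq2 on the recovered reads (2.18, adjusted p = 0.00618) and with naive libraries as the control (1.79, adjusted p = 0.0349).

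The lowest Ifng library of the SLR14 group and that of the poly(I:C) group, replicate 2 in both, were also the libraries of their groups with the most erythroid transcript. Without SLR14 replicate 2 the SLR14 change was 7.53 (adjusted p = 1.59e-07). With that library and poly(I:C) replicates 2 and 3 left out together, the 7 members called with SLR14 were still called. The poly(I:C) arm is then replicate 1 alone, assumed to vary like the other groups. Its Ifng change was 7.53 (adjusted p = 1.77e-06), and 7 members were called higher. Natural killer cell markers, all 12 above the floor, summed to 142 CPM in SLR14 replicate 2 and 132 CPM in poly(I:C) replicate 2. They summed to 204 and 203 CPM in SLR14 replicates 1 and 3, 187 and 168 CPM in those of poly(I:C), and 197 to 208 CPM with SLR10. T cell sums (353 and 368 CPM) and B cell sums (1470 and 1350 CPM) were also the lowest of their groups in both replicate 2 libraries. Dendritic cell (155 CPM) and monocyte and macrophage (874 CPM) sums were the highest of their group in SLR14 replicate 2. The part of the erythroid and other marker transcripts in the spread of Ifng was not tested. The annotation places a second gene, Gm49751, over 249 of the 1208 exon bases of Ifng on the same strand, and it has no line in the table.

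The chains of IL-12 behaved differently from each other. Il12b (chromosome 11, 44400063 to 44414033, plus strand), the p40 chain, read 19.2, 20.4 and 22.2 CPM with SLR10, 11.1, 6.88 and 3.66 CPM with SLR14, and 25.9, 15.0 and 24.4 CPM with poly(I:C). With pppNS it read 26.9, 14.4 and 5.30 CPM, with vehicle 1.45 and 1.09 CPM, and in naive spleen 1.64, 1.36 and 1.01 CPM. Libraries of the 4 agents were all above all controls, and SLR14 lay below SLR10 and poly(I:C) with no overlap. Its log2 change against vehicle was 3.58 ± 0.51 with SLR10 (adjusted p = 7.95e-05), 3.62 ± 0.51 with poly(I:C) (8.32e-05), 2.92 ± 0.51 with pppNS (0.00456) and 2.01 ± 0.51 with SLR14 (0.00649). Without vehicle replicate 2 the adjusted p was 0.0584 with SLR14 (log2 change 1.86) and 0.0779 after pppNS (2.78), and without pppNS replicate 3 the pppNS change was 3.52 (adjusted p = 0.000351).

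Il12a (chromosome 3, 68690644 to 68698547, plus strand), the p35 chain that IL-12 and IL-35 share, was already expressed in controls. It read 9.28, 8.04 and 8.10 CPM with SLR10, 9.49, 6.34 and 7.28 CPM with SLR14, and 10.6, 9.45 and 8.15 CPM with poly(I:C). Levels were 7.58, 6.18 and 1.53 CPM after pppNS, 7.48 and 7.86 CPM with vehicle and 4.43, 4.51 and 4.56 CPM in naive spleen. The naive libraries lay below all others except pppNS replicate 3, the lowest of all. No agent passed the test against vehicle: the log2 changes were 0.13 (95% interval -0.75 to 1.01) with SLR10, -0.01 (-0.89 to 0.87) with SLR14, 0.27 (-0.61 to 1.15) with poly(I:C) and -0.77 (-1.65 to 0.11) after pppNS. Set against naive libraries instead, the poly(I:C) change was 0.98 (adjusted p = 0.0416).

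Per kilobase of exon, the ratio of Il12b to Il12a was 0.135 and 0.0967 in the vehicle libraries and 0.154 to 0.258 in the naive ones. It was 1.44, 1.77 and 1.91 with SLR10, 1.70, 1.11 and 2.09 with poly(I:C) and 2.47, 1.63 and 2.41 after pppNS. With SLR14 it was 0.814, 0.756 and 0.35. Thus the p35 transcript outnumbered p40 per length in every control and SLR14 library, and p40 outnumbered p35 in every SLR10, poly(I:C) and pppNS library. Il23a, the p19 chain that joins p40 to form IL-23, stayed between 0 and 0.517 CPM and was too low to test.

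**Figure D2:**
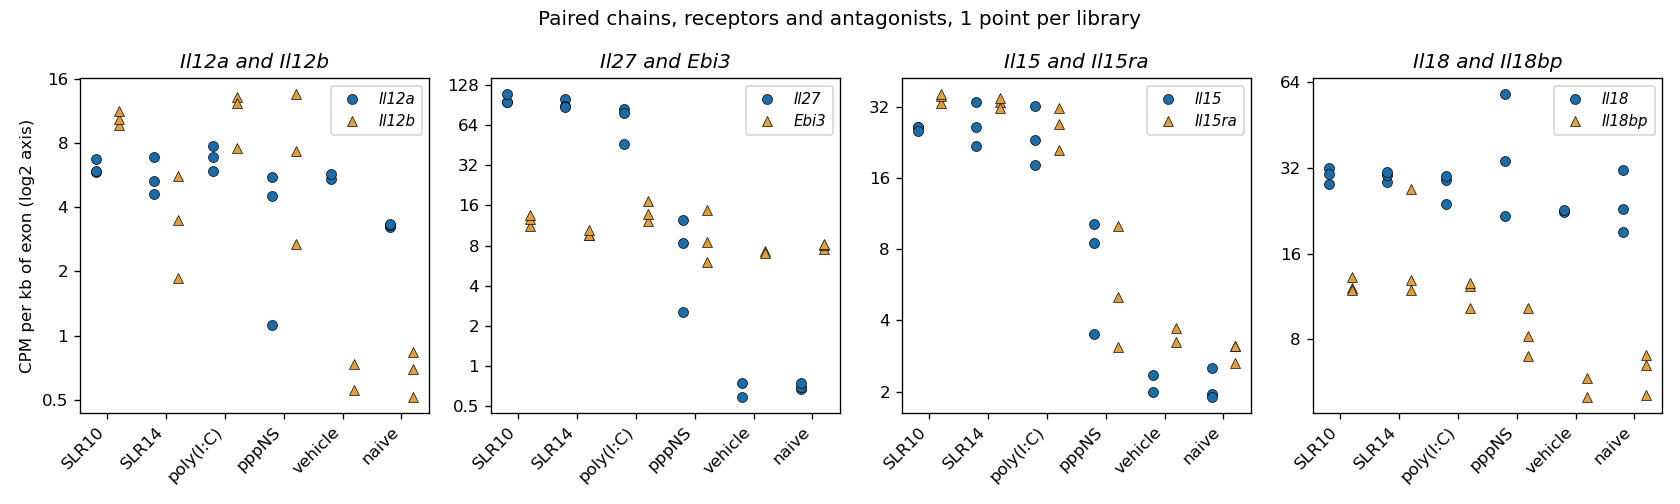
CPM per kilobase of exon on a log2 axis for 4 pairs of genes, 1 point per library: the IL-12 chains, the IL-27 chains, IL-15 with its receptor chain, and IL-18 with its binding protein. Il12b and Il27 cross over their partners Il12a and Ebi3 between controls and SLR10, while Il15 and Il15ra move together and Il18 stays above Il18bp in every library.

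Il27 (chromosome 7, 126589010 to 126594941, minus strand), the p28 chain of IL-27, had the smallest adjusted p of the members with all 3 of SLR10, SLR14 and poly(I:C). It read 97.4, 97.9 and 113 CPM with SLR10, 102, 91.1 and 89.3 CPM with SLR14, and 85.5, 47.4 and 80.1 CPM with poly(I:C). Levels were 8.58, 2.59 and 12.7 CPM after pppNS, 0.763 and 0.596 CPM with vehicle, and 0.691, 0.717 and 0.769 CPM in naive spleen. The SLR libraries lay above all poly(I:C) libraries, these above all pppNS libraries, and these above all controls. Against vehicle the log2 change was 6.45 ± 0.43 with SLR10 (adjusted p = 1.17e-07), 6.33 ± 0.43 with SLR14 (1.27e-07), 5.88 ± 0.43 with poly(I:C) (2.42e-07) and 2.61 ± 0.43 after pppNS (0.00295). Leaving out vehicle replicate 2 gave 2.51 with pppNS (adjusted p = 0.0542), and leaving out pppNS replicate 2 gave 3.22 (3.36e-06).

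Ebi3, the chain that joins p28 in IL-27, started higher and moved less. Its mean was 14.4 CPM with SLR10, 11.4 CPM with SLR14, 16.6 CPM with poly(I:C), 11.3 CPM with pppNS, 8.28 CPM with vehicle and 9.16 CPM in naive spleen. It rose with SLR10 (0.76 ± 0.26, adjusted p = 0.0315) and poly(I:C) (0.95 ± 0.26, 0.0112), and did not pass with SLR14 (0.44 ± 0.26, 0.211). Both calls were lost when either vehicle library was left out, with log2 changes of 0.75 to 0.96, and the SLR10 call also without SLR10 replicate 2 (0.75, adjusted p = 0.07) or 3 (0.70, 0.0884). Per kilobase, Il27 was 0.0823 to 0.103 of Ebi3 in the control libraries, 0.418 to 0.985 of it with pppNS, and 3.82 to 10.4 times it with SLR10, SLR14 and poly(I:C). On the genome Il27 shares 103 of its 1021 exon bases with Apobr on the opposite strand. Apobr had means of 23.6 CPM with vehicle and 10.7 to 18.8 CPM with the 4 agents. The strand setting of the authors' counting is not given in the sources used here.

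Il15 (chromosome 8, 82331632 to 82403222, minus strand), which supports natural killer and memory T cells, rose with all 4 agents. It read 55.4, 55.2 and 53.4 CPM with SLR10, 55.6, 46.1 and 70.7 CPM with SLR14, and 67.6, 38.0 and 48.5 CPM with poly(I:C). Levels were 17.9, 7.39 and 21.4 CPM after pppNS, 4.21 and 4.95 CPM with vehicle and 4.12, 3.97 and 5.30 CPM in naive spleen. No pppNS library overlapped the higher 3 groups or the controls. The log2 change against vehicle was 3.45 ± 0.35 with SLR10 (adjusted p = 4.07e-06), 3.49 ± 0.35 with SLR14 (3.54e-06), 3.32 ± 0.35 with poly(I:C) (6.41e-06) and 1.54 ± 0.35 after pppNS (0.0222). The pppNS call was lost without pppNS replicate 1 (1.38, adjusted p = 0.0558) or 3 (1.25, 0.0578), and without vehicle replicate 1 (1.43, 0.2) or 2 (1.64, 0.145).

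Il15ra, the receptor chain that presents IL-15 to neighbouring cells, rose alongside. Its log2 change was 3.25 ± 0.32 with SLR10 (adjusted p = 3.12e-06), 3.18 ± 0.32 with SLR14 (3.79e-06) and 2.84 ± 0.32 with poly(I:C) (1.17e-05), and 0.61 ± 0.32 after pppNS (0.262), which passed without pppNS replicate 3 (0.98, adjusted p = 0.0418). Mean levels were 80.3, 76.5, 60.9 and 13.8 CPM, against 7.98 CPM with vehicle. The per-kilobase ratio of Il15 to Il15ra stayed between 0.606 and 1.02 in every library except pppNS replicate 3, where it was 3.29.

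Il18 (chromosome 9, 50554827 to 50581840, plus strand), made as an inactive precursor that caspase-1 cleaves, changed little in transcript level. It read 28.9, 33.0 and 31.4 CPM with SLR10, 29.5, 31.3 and 31.9 CPM with SLR14, and 29.9, 24.8 and 31.0 CPM with poly(I:C). Levels were 34.8, 22.4 and 60.2 CPM after pppNS, 23.1 and 23.4 CPM with vehicle and 23.6, 19.6 and 32.3 CPM in naive spleen. The naive libraries overlapped every agent's libraries, and the highest library of all, pppNS replicate 3, was the one with the most erythroid transcript. Against vehicle the log2 change was 0.41 (95% interval -0.23 to 1.05) with SLR10, 0.40 (-0.24 to 1.04) with SLR14, 0.28 (-0.36 to 0.93) with poly(I:C) and 0.62 (-0.02 to 1.27) after pppNS, and none passed. With only the groups compared in the model, the SLR10 and SLR14 changes passed (adjusted p = 0.00148 and 0.0273), and without pppNS replicate 2 the pppNS change did (0.96, adjusted p = 0.0344).

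Of the genes around IL-18, Il18bp, the secreted protein that neutralises it, rose by 1.17 ± 0.28 with SLR10 (adjusted p = 0.00439), 1.54 ± 0.28 with SLR14 (0.000619) and 1.09 ± 0.28 with poly(I:C) (0.00782). The last call was lost without vehicle replicate 1 (0.98, adjusted p = 0.0743). Its gene overlaps Numa1 on the opposite strand. Per kilobase, Il18 was 3.90 and 4.47 times Il18bp with vehicle and 1.13 to 2.81 times it with SLR10, SLR14 and poly(I:C). The receptor chains Il18r1 and Il18rap had means of 12.5 and 15.1 CPM with vehicle. Il18rap rose with poly(I:C) (1.16 ± 0.33, adjusted p = 0.013), a call lost without vehicle replicate 1 (1.09, 0.0906) or 2 (1.24, 0.056). It passed with SLR10 with only the groups compared (0.46, 0.003) and with SLR14 without the high-erythroid libraries (0.81, 0.0187). Il18r1 passed with no agent in the main model, with log2 changes of 0.33, 0.14 and 0.73 for SLR10, SLR14 and poly(I:C). It passed with poly(I:C) against naive libraries (0.97, adjusted p = 0.0313) or with naive and vehicle as 1 control (0.87, 0.0254). With only the groups compared it passed with SLR10 (0.33, 0.0458).

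Both chains of the IL-12 receptor rose. Il12rb1 (chromosome 8, 70808449 to 70821424, plus strand), which IL-12 and IL-23 share, read 73.7, 82.4 and 82.4 CPM with SLR10, 86.6, 50.8 and 74.4 CPM with SLR14, and 45.2, 30.9 and 39.7 CPM with poly(I:C). Levels were 11.2, 4.39 and 5.19 CPM after pppNS, 3.82 and 3.30 CPM with vehicle and 3.50, 4.01 and 2.73 CPM in naive spleen. The SLR libraries were all above the poly(I:C) libraries, and these all above pppNS. The log2 change against vehicle was 4.30 ± 0.32 with SLR10 (adjusted p = 2.88e-07), 4.10 ± 0.32 with SLR14 (4.09e-07) and 3.25 ± 0.32 with poly(I:C) (3.31e-06), and 0.77 ± 0.32 after pppNS (0.183), which passed only with naive and vehicle as 1 control (0.80, adjusted p = 0.0493).

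Il12rb2 (chromosome 6, 67291318 to 67376188, minus strand), the chain that confers IL-12 signalling through Stat4, read 40.0, 40.4 and 39.2 CPM with SLR10, 48.0, 30.1 and 42.7 CPM with SLR14, and 46.9, 23.8 and 34.6 CPM with poly(I:C). Levels were 7.06, 4.90 and 1.96 CPM after pppNS, 4.92 and 5.34 CPM with vehicle and 3.79, 2.94 and 3.00 CPM in naive spleen. The 3 high groups overlapped each other, and pppNS overlapped both control groups. Against vehicle the log2 change was 2.84 ± 0.38 with SLR10 (adjusted p = 3.86e-05), 2.83 ± 0.38 with SLR14 (4.1e-05), 2.61 ± 0.38 with poly(I:C) (9.31e-05) and -0.28 (95% interval -1.08 to 0.53) after pppNS. Of the 3794 exon bases of Il12rb2, 1519 are shared with Serbp1, an RNA-binding protein gene on the opposite strand. Serbp1 had means of 378, 372, 345 and 272 CPM with SLR10, SLR14, poly(I:C) and then pppNS, against 197 CPM with vehicle. Whether its reads entered the Il12rb2 count was not tested. Stat4, the signal transducer of this receptor, passed with no agent, with log2 changes of 0.20, 0.14 and 0.63 for SLR10, SLR14 and poly(I:C) and means of 35.0, 35.8, 49.5 and 30.5 CPM with these agents and vehicle. With SLR14 replicate 2 and poly(I:C) replicates 2 and 3 left out, Stat4 passed with SLR14 (0.52, adjusted p = 0.0185). Its poly(I:C) value then rests on replicate 1 alone, at 69.7 CPM against 36.1 and 42.6 CPM in the libraries left out (1.18, adjusted p = 0.000799 with the spread of the other groups).

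Tbx21 (chromosome 11, 97098071 to 97115331, minus strand), which encodes T-bet, read 24.5, 25.5 and 27.7 CPM with SLR10, 24.9, 18.6 and 21.2 CPM with SLR14, and 22.9, 12.6 and 20.6 CPM with poly(I:C). Levels were 8.14, 6.88 and 8.36 CPM after pppNS, 8.29 and 5.96 CPM with vehicle and 9.58, 13.6 and 8.75 CPM in naive spleen. SLR10 and SLR14 lay above all controls, and poly(I:C) replicate 2 lay under the highest naive library. The log2 change against vehicle was 1.81 ± 0.25 with SLR10 (adjusted p = 5.61e-05), 1.54 ± 0.25 with SLR14 (0.000217), 1.31 ± 0.25 with poly(I:C) (0.000904) and 0.13 (95% interval -0.40 to 0.67) after pppNS. Eomes, the related T-box factor of natural killer and memory T cells, rose more: by 2.46 ± 0.25 with SLR10 (adjusted p = 3.93e-06), 2.29 ± 0.25 with SLR14 (7.08e-06) and 1.89 ± 0.25 with poly(I:C) (4.3e-05), with means of 49.6, 44.7 and 33.5 CPM against 8.62 CPM with vehicle.

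**Figure D3:**
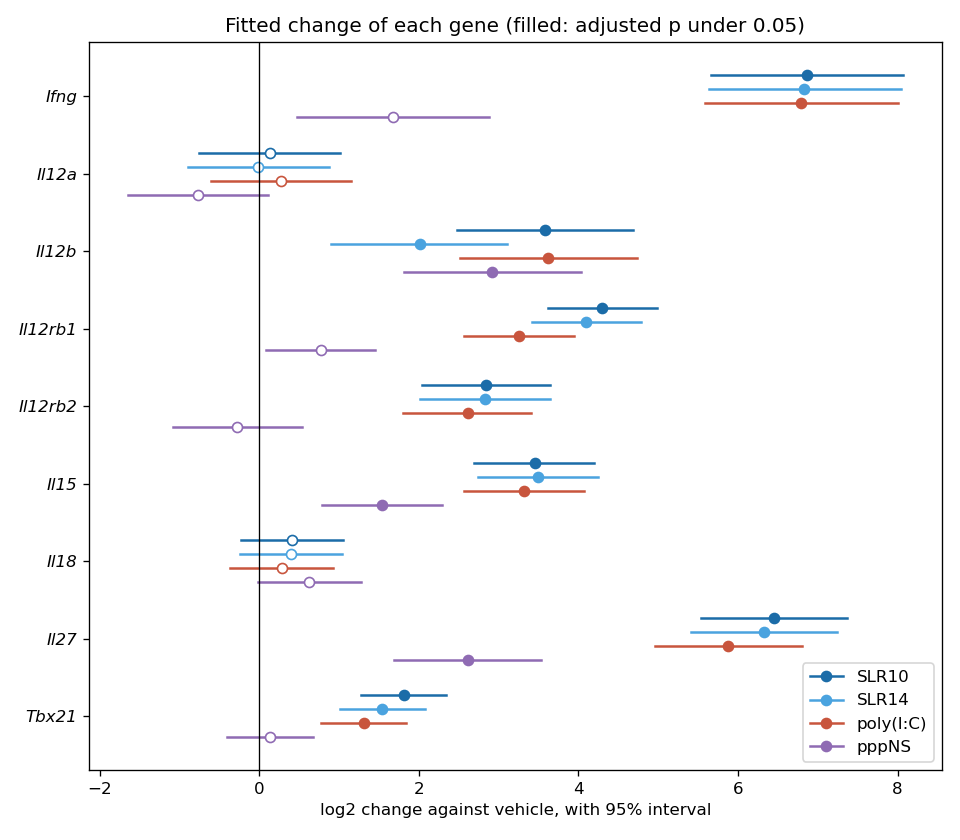
Fitted log2 change against vehicle of each gene for the 4 agents, with 95% intervals; filled points passed the test (adjusted p under 0.05). SLR10, SLR14 and poly(I:C) lie close together for most genes, and pppNS lies far below them for Ifng, Il27, Il12rb1 and Il12rb2 but among them for Il12b.

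Vehicle and naive spleen differed in 0 of 9 members, where 0.05% of all genes were called in either direction. At an unadjusted p under 0.05, 1 member, Tbx21, differed (limma), and edgeR and DESeq2 each called 0 members. Tbx21 was lower with vehicle by a log2 change of -0.54 ± 0.25 (adjusted p = 0.551). Il12a was higher with vehicle by 0.71 ± 0.41 (0.589), with no overlap between the 2 vehicle and 3 naive libraries.

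SLR14 and SLR10 also differed in 0 of 9 members, where 0% of all genes were called in limma. At an unadjusted p under 0.05 the count was 1 of 9 members and 89 of 14010 genes, and DESeq2 called 0 members and 1 gene. The member was Il12b, with means of 7.21 CPM with SLR14 and 20.6 CPM with SLR10 and no overlap between the libraries: its log2 difference was -1.57 (95% interval -2.56 to -0.58, unadjusted p = 0.00424, adjusted p = 1.0). For Ifng the difference was -0.04 with an interval of -1.11 to 1.04, so a 2-fold difference in either direction lies within it, and without SLR14 replicate 2 it was 0.66. The intervals of Il15 (-0.62 to 0.72), Il27 (-0.95 to 0.70), Il12rb1 (-0.82 to 0.41) and Tbx21 (-0.74 to 0.21) were narrower.

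Poly(I:C) differed from the mean of SLR10 and SLR14 in 0 of 9 members, where 1.85% of all genes were called higher and 1.66% lower. At an unadjusted p under 0.05, 1 member differed, Il12rb1, and edgeR called 0 members and DESeq2 1. Il12rb1 averaged 38.6 CPM with poly(I:C) and 75.1 CPM over the 6 SLR libraries, without overlap, a log2 difference of -0.95 ± 0.25 (adjusted p = 0.0513). It passed without SLR14 replicate 2 (-1.06, adjusted p = 0.0257) and without poly(I:C) replicate 1 (-1.07, 0.0349). With the 3 libraries of high erythroid transcript left out, a single poly(I:C) library remained and the difference was -0.81 (adjusted p = 0.565). Il27 was also without overlap, at 71.0 CPM against 98.3 CPM, and its difference of -0.51 ± 0.33 did not pass (adjusted p = 0.422). Il12b was at 21.8 CPM against 13.9 CPM (0.83 ± 0.40, adjusted p = 0.274), the SLR mean being an average of unlike groups for this gene.

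Between pppNS and the mean of the SLRs, 7 of 9 members were lower with pppNS and 0 higher, where 22.8% of all genes were called lower and 22.1% higher. The pppNS and SLR libraries here are the ones used against vehicle above. The log2 difference was -5.18 ± 0.44 for Ifng (adjusted p = 1.71e-06), -3.78 ± 0.33 for Il27 (2.43e-06), -3.44 ± 0.25 for Il12rb1 (4.29e-07) and -3.11 ± 0.29 for Il12rb2 (3.89e-06). It was -1.93 ± 0.27 for Il15 (8.48e-05), -1.54 ± 0.19 for Tbx21 (3.26e-05) and -0.83 ± 0.32 for Il12a (0.0462). Both edgeR and DESeq2 called 6 members. None of the first 6 of these differences had overlapping libraries, and the share of all tested genes without overlap was not counted. Il12a did overlap, and without pppNS replicate 3 the difference was -0.21 (adjusted p = 0.258). The Il12a call was also lost without SLR10 replicate 1 (-0.80, 0.0786), 2 (-0.85, 0.0659) or 3 (-0.85, 0.067) and without SLR14 replicate 1 (-0.76, 0.0912) or 3 (-0.85, 0.0664). It was lost too with edgeR (-0.73, 0.0994), DESeq2 (-0.70, 0.069), no filter (0.0747) and only the groups compared (0.129). Leaving out SLR14 replicate 2 and poly(I:C) replicates 2 and 3, with pppNS replicate 3 kept, also lost it (-0.89, 0.0598). The Il27 difference was -3.17 without pppNS replicate 2 (6.88e-07). Il12b was at 15.6 CPM with pppNS and 13.9 CPM with the SLRs, a difference of 0.13 with a 95% interval of -0.73 to 0.98 (adjusted p = 0.812). Il18 differed by 0.22 (-0.28 to 0.72, adjusted p = 0.451), and by 0.56 without pppNS replicate 2 (0.0428).

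Downstream of the cytokine, both receptor chains fell and most of the signalling genes rose with SLR10, SLR14 and poly(I:C). Of 11 genes of the interferon gamma receptor and its signalling, 7 rose and 2 fell with SLR10 and with SLR14. With poly(I:C) 7 rose and 3 fell, and with pppNS 4 rose and 1 fell. For pppNS, 2 were called in all without vehicle replicate 1, 1 without vehicle replicate 2 and 0 with only the groups compared. Of all tested genes, 18.6% to 20.2% were called higher and 17.3% to 19.4% lower with SLR10, SLR14 and poly(I:C). With pppNS these shares were 2.96% and 1.35%. Under quantile scaling the rise of Jak2 was not called with SLR10, SLR14 or poly(I:C), and Ptpn6 was called lower with SLR10 and SLR14. The median log2 change of the list was 1.28, 1.42, 1.53 and 0.04 in that order. Ifngr1, the ligand-binding chain, fell from a mean of 103 CPM with vehicle to 49.0 CPM with SLR10, 52.6 CPM with SLR14, 52.5 CPM with poly(I:C) and 63.0 CPM after pppNS. Its log2 change was -1.06 ± 0.16 with SLR10 (adjusted p = 0.000124), -0.97 ± 0.16 with SLR14 (0.000266), -0.97 ± 0.16 after poly(I:C) (0.0003) and -0.71 ± 0.16 after pppNS (0.022). The last was lost without vehicle replicate 1 (-0.75, 0.131) or 2 (-0.66, 0.239). Ifngr2, the signal-transducing chain, fell by 0.73 on the log2 scale with SLR10 (adjusted p = 0.00535, and 0.0558 without vehicle replicate 1), 0.76 with SLR14 (0.00399) and 1.2 with poly(I:C) (0.000134), and with pppNS its change was -0.13 (0.656).

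Among the genes that rose, Socs1, a feedback inhibitor of this receptor, changed by 5.29 ± 0.45 after SLR10, 5.26 ± 0.45 after SLR14, 5.78 ± 0.45 after poly(I:C) and 2.98 ± 0.45 after pppNS (adjusted p from 4.69e-07 to 0.00162). The pppNS call was lost with only the groups compared in the model (adjusted p = 0.16). The vehicle mean of Socs1 was 5.10 CPM and its poly(I:C) mean 310 CPM. Irf1, a transcription factor that interferon induces, rose by 3.29 ± 0.28, 3.26 ± 0.28, 3.29 ± 0.28 and 1.47 ± 0.28 in that order. Irf8, a factor of myeloid cells, rose by 2.27 ± 0.25, 2.06 ± 0.25 and 1.81 ± 0.25 with the first 3 agents and was at -0.23 ± 0.25 with pppNS (adjusted p = 0.554). Several of these genes are also induced by type I interferon, and the routes cannot be told apart here.

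**Figure D4:**
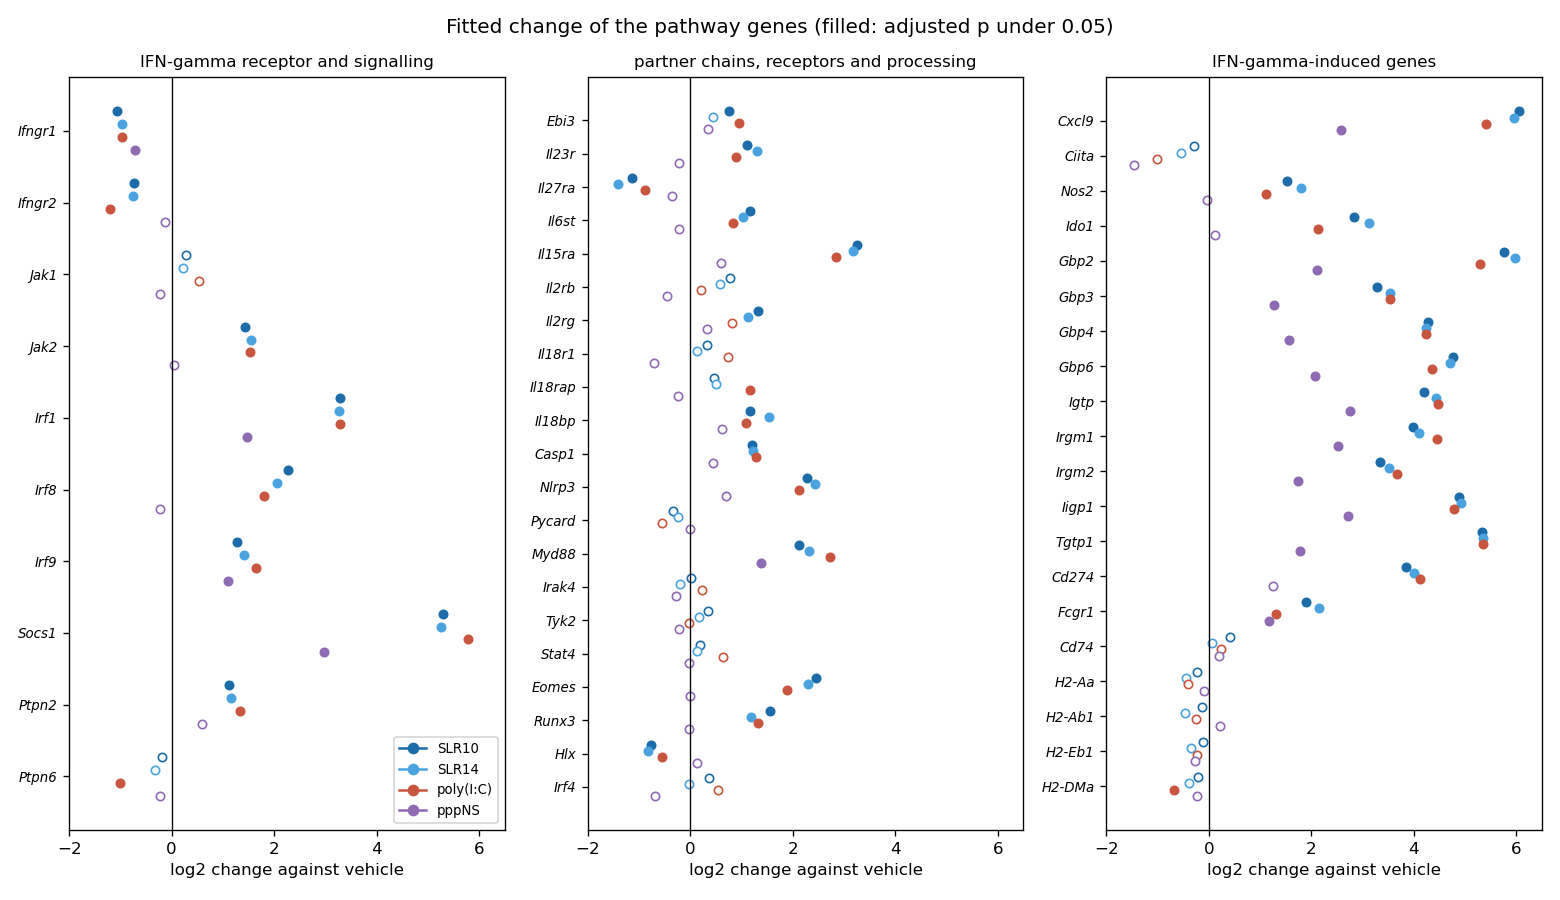
Fitted log2 change against vehicle for the 3 lists of receptor and signalling genes (10 of 11 drawn), partner chains and receptors, and induced genes; colours mark the 4 agents and filled points passed the test (adjusted p under 0.05). Cxcl9, Gbp2 and Socs1 lie above 5 with SLR10, SLR14 and poly(I:C), Ifngr1, Ifngr2 and Il27ra lie below 0, and the class II genes at the foot of the third panel lie near 0 or, for H2-DMa with poly(I:C), below it (quantile scaling puts H2-Aa, H2-Ab1 and H2-Eb1 lower too, and H2-DMa with SLR10 and SLR14).

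Of 22 partner chains, receptors, processing and signalling genes of IL-12, IL-15, IL-18 and IL-27, 21 were tested. With SLR10, 11 rose and 2 fell, with SLR14 10 rose and 2 fell, after poly(I:C) 11 rose and 2 fell, and after pppNS 1 rose. The shares of all tested genes were 18.6% to 20.2% higher and 17.3% to 19.4% lower with the first 3 agents, and 2.96% and 1.35% with pppNS. The number of this list called was 20 for SLR10 with only the groups compared, and for poly(I:C) 7 without vehicle replicate 1 and 8 without replicate 2. For pppNS it was 0 with only the groups compared, 0 without either vehicle library and 3 without pppNS replicate 3. List medians were 0.77, 0.58, 0.84 and -0.02. Beside Il15ra and Eomes, the smallest adjusted p with SLR10 belonged to Myd88, the adaptor of the IL-18 and Toll-like receptors, and to Nlrp3, the inflammasome sensor upstream of caspase-1, whose mean was 36.6 CPM against 7.17 CPM with vehicle. Myd88 rose by 2.13 ± 0.25 after SLR10, 2.31 ± 0.25 after SLR14, 2.72 ± 0.25 after poly(I:C) and 1.38 ± 0.25 after pppNS (adjusted p = 0.00541, and 0.0688 and 0.0739 without vehicle replicate 1 or 2). Il27ra, the receptor chain of IL-27, and Hlx, a T-bet partner, were the 2 that fell with each of SLR10, SLR14 and poly(I:C), and are named after their values were seen. Il27ra went from 55.6 CPM with vehicle to 25.0, 21.4 and 30.0 CPM. The fall of Hlx, from 4.95 CPM to 2.72, 2.58 and 3.23 CPM, was not called under quantile scaling. Nor were the rises of Il6st with these 3 agents, Il2rg with SLR10 and SLR14, and Runx3 with SLR14 and poly(I:C), so that 10, 8 and 10 genes of the list were called under that scaling.

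Of 20 genes known to be induced by interferon gamma, 14 rose with SLR10 and with SLR14, 14 rose and 1 fell with poly(I:C), and 11 rose with pppNS. List medians were 3.31, 3.53, 3.60 and 1.27. Among all tested genes, 18.6% to 20.2% were called higher and 17.3% to 19.4% lower with SLR10, SLR14 and poly(I:C). With pppNS these shares were 2.96% and 1.35%. Irgm1, an immunity-related GTPase, went from a mean of 72.6 CPM with vehicle to 1160, 1260, 1600 and 432 CPM, and rose by 3.99 ± 0.21, 4.10 ± 0.21, 4.45 ± 0.21 and 2.52 ± 0.21. Gbp2, a guanylate-binding protein, rose by 5.75 ± 0.40, 5.98 ± 0.40 and 5.30 ± 0.40 with SLR10, SLR14 and poly(I:C). Iigp1, another GTPase, rose by 4.89 ± 0.34, 4.92 ± 0.34, 4.79 ± 0.34 and, with pppNS, 2.71 ± 0.34. Cxcl9, a chemokine for T cells that interferon gamma induces strongly, read 1370, 1540 and 1560 CPM with SLR10 and 19.3 and 25.1 CPM with vehicle (6.05 ± 0.46, adjusted p = 3.44e-07). The 6 genes of the list that serve MHC class II presentation (Ciita, Cd74, H2-Aa, H2-Ab1, H2-Eb1 and H2-DMa) did not rise with any agent, and the only call among them was a lower H2-DMa with poly(I:C) (-0.68); under quantile scaling H2-Aa, H2-Ab1 and H2-Eb1 were called lower with SLR10, SLR14 and poly(I:C), and H2-DMa also with SLR10 (-0.82, adjusted p = 0.0103) and SLR14 (-1.02, 0.00276). These 6 are named after their values were seen. With only the groups compared in the model, 0 of the 20 genes were called with pppNS, and without vehicle replicate 1 or 2 the count was 3 or 5.

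Of 9 genes that restrain the type 1 programme or mark other helper programmes, 6 were tested, and Il4, Il13 and Il17a were too low. With SLR10 3 rose and 1 fell, with SLR14 2 rose and 2 fell, after poly(I:C) 1 rose and 1 fell, and after pppNS 1 rose. The shares of all tested genes were 18.6% to 20.2% higher and 17.3% to 19.4% lower with the first 3 agents, and 2.96% and 1.35% with pppNS. The number of this list called with SLR10 was 2 without vehicle replicate 2, and with SLR14 it was 2 without SLR14 replicate 1 or 3 or vehicle replicate 1. Under quantile scaling the rise of Bcl6 with SLR10 and SLR14 and the fall of Gata3 with SLR14 were not called. Tgfb1 was then called lower with SLR10 (-0.72), SLR14 (-0.93) and poly(I:C) (-0.89). Under median-of-ratios scaling the SLR14 calls of Bcl6 and Gata3 were lost too. Il10, which dampens IL-12 production, rose with all 4: by 2.63 ± 0.37 with SLR10 (adjusted p = 6.03e-05), 2.51 ± 0.37 with SLR14 (9.35e-05), 2.74 ± 0.37 with poly(I:C) (4.84e-05) and 1.79 ± 0.37 after pppNS (0.012). It stayed low, at 0.29 and 0.238 CPM with vehicle and 3.56 to 4.89 CPM with SLR10. The pppNS call was lost without vehicle replicate 1 (1.84, adjusted p = 0.0999) or 2 (1.74, 0.139).

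Markers of the cells that make or induce interferon gamma moved as follows. Beside these counts, the shares of all tested genes called higher and lower were 20.2% and 19.2% with SLR10. They were 19.3% and 19.4% with SLR14, 18.6% and 17.3% with poly(I:C), and 2.96% and 1.35% with pppNS. Of 12 natural killer cell markers, 4 rose and 4 fell with SLR10 and with SLR14, and 3 rose and 4 fell with poly(I:C). Their sum was 197 to 208 CPM with SLR10, 142 to 204 CPM with SLR14, 132 to 187 CPM with poly(I:C), 90.9 to 165 CPM with pppNS, 125 to 135 CPM with vehicle and 145 to 190 CPM in naive spleen. This sum joins markers that moved in opposite directions. Klrk1, Xcl1 and Eomes rose with these 3 agents, and Gzma with SLR10 and SLR14. Klrb1c, Klrd1, Cd160 and Klra8 fell with all 3. Of 12 T cell markers, 1 rose and 6 fell with each of SLR10, SLR14 and poly(I:C). Their sum was 489 to 514 CPM with SLR10, 353 to 515 CPM with SLR14, 368 to 473 CPM with poly(I:C), 422 to 495 CPM with pppNS and 485 to 531 CPM with vehicle. Here too the sum joins opposite changes. The 1 that rose was Ccr7, with means of 203, 181 and 143 CPM against 68.5 CPM with vehicle. The 6 that fell were Cd3e, Cd3g, Cd4, Cd5, Cd28 and Cd27. With SLR10, Cd5 had a mean of 4.82 CPM against 29.6 CPM with vehicle, and Cd3g 9.86 CPM against 40.6 CPM. Of 10 conventional dendritic cell markers, 8 fell after SLR10, 7 after SLR14, 9 after poly(I:C) and 2 after pppNS, and none rose. Their sum was 135 to 157 CPM with SLR10, SLR14 and poly(I:C), 280 to 312 CPM with pppNS and 327 to 379 CPM in the controls, with all 10 above the floor. Among neutrophil markers, 4 of 10 rose after SLR10, 6 after SLR14, 8 after poly(I:C) and 4 after pppNS, and their sum was 159 to 312 CPM in controls and 283 to 1460 CPM with the agents. Of 11 monocyte and macrophage markers, 5, 4, 3 and 2 fell in that order and none rose. The 2 that fell with all 4 agents were Ccr2 and Cx3cr1, chemokine receptors of monocytes, named after their values were seen. Ly6c2, Spic, Vcam1, Mertk, Marco and Cd68 were called with none. Ly6c2, another monocyte marker, had means of 60.4, 57.6, 39.8 and 65.9 CPM in the same order, against 33.1 CPM with vehicle. Its log2 changes were 0.86, 0.79, 0.26 and 0.67. The list had sums of 697 to 1140 CPM over all libraries. B cell markers summed to 2730 to 3150 CPM in controls and 1350 to 2730 CPM with the agents. The part of these cells in the cytokine levels was not tested.

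The genes with the most similar pattern to each member were sought among 9724 genes with a mean of at least 5 CPM. Likeness was the root-mean-square difference over the 17 libraries between log2(CPM + 0.5) levels, each centred on its own mean, and it is a description over libraries that share their groups. For Ifng, whose own spread was 3.22, the nearest were Il27 (0.792), Ifna1 (0.897), a type I interferon, and Cxcl11 (0.94), a chemokine. For Il27 they were Cxcl9 (0.324), Gbp2 (0.367) and Ccl7 (0.397) at a spread of 2.78. Il15 was nearest to Casp4 (0.218), Ms4a4c (0.226) and Gpr33 (0.233), and Il12rb1 to Atp10a (0.251), Cx3cl1 (0.317) and Bbx (0.347). For Il12rb2 they were Abtb2 (0.295), Il15ra (0.306) and Bbx (0.306). Tbx21 was nearest to Zbtb32 (0.196), Ccr7 (0.208) and Gsdmd (0.237). For Il12b they were Papd7 (0.774), Sema4c (0.774) and Rgs16 (0.796) at a spread of 1.56. Il12a and Il18 moved little, with spreads of 0.57 and 0.346. The nearest to Il12a were Zfp62 (0.154) and Trip11 (0.164), and to Il18 Sat1 (0.154), Spic (0.16) and Rab11a (0.185).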

How the data were processed

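The deposited table holds a signal per gene and library. The authors made it with edgeR as normalized CPM, per the file headers. The submitters' processing notes list TopHat2 2.0.6, TopHat, HTSeq, SAMtools 1.4, edgeR and FastQC with GRCm38 and mm10, without roles. The annotation version and the strand setting of the counting are not given in the sources used here. Per the labels, stranded mRNA libraries were prepared from 500 ng of RNA. Every value was a whole multiple of 1 read (100.0% within 0.01 reads), so whole reads were recovered for edgeR 4.0.16 and DESeq2 1.42.0 as alternatives.

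The table has 39184 lines. Left out were 5 without a name, 699 named #N/D, 27 whose names had become date numbers and 113 repeats of 87 names, leaving 38340 genes. Between 28.1% and 46.1% of the reads of a library are in nameless lines.

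A gene was tested if 2 or more libraries reached 1 CPM (14010 genes). Values were taken as log2(CPM + 0.5), which draws the changes of low genes toward 0, and a single limma 3.58.1 model took all 17 libraries (R 4.3.3) with a mean-variance trend. Adjusted p-values are Benjamini-Hochberg over all genes within each of 8 comparisons, with a threshold of 0.05. Errors beside changes are standard errors and intervals are 95% intervals. Each replicate number only names a library. Floors reflect counting error alone, since PCR copies are not independent molecules. Exon lengths, positions and overlaps come from GENCODE vM21 (GRCm38).

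The 9 members and all gene and marker lists were chosen with earlier results of these data known. Named in the text are the members, at most 4 genes per list and comparison with the smallest adjusted p, Ebi3, Il23a, Il15ra, Il18bp, Il18r1, Il18rap, Stat4, Ifngr1 and Ifngr2, and the 3 nearest patterns per member, leaving out number-named gene models and receptor segments. Among these, 1 signalling gene and 1 nearest pattern are not reported here, and the signalling gene is counted in its list. Marker lists (natural killer, T, B, dendritic, monocyte and macrophage, neutrophil, erythroid) served only as levels. The alternatives comprised pseudocounts of 0.1 and 2, no filter or a 5 CPM filter, median-of-ratios or quantile scaling, only the groups compared, edgeR, DESeq2, other controls, a replicate block, leaving out the 3 libraries of high erythroid transcript (SLR14 replicate 2, poly(I:C) replicates 2 and 3), and leaving out every replicate singly. The fit code was run on simulated counts with the same added spread for every gene and library. Such data hold no outlying libraries, so no support for the results is drawn from them.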

Additional observations from a re-analysis of the deposited data

How the results depend on the processing

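The counts of 7 members higher than vehicle with SLR10, SLR14 and poly(I:C) ranged from 6 to 8 over the alternatives. For pppNS against vehicle, 3 members became 0 with only the groups compared, 5 with naive and vehicle as 1 control, and 0 to 4 with a replicate left out. For poly(I:C) against the SLRs, 0 became 1 (Il12rb1, lower) with a pseudocount of 2, with only the groups compared, with DESeq2 and with the replicate block (adjusted p = 0.0362), and 0 to 1 with a replicate left out. Equal replicate numbers did not pair the libraries throughout: residual correlations were -0.124 to 0.142 between SLR14 and SLR10, and 0.8, 0.799 and -0.518 between poly(I:C) and SLR14, where unequal numbers reached 0.72. With vehicle, 2 pairs gave 0.254 and 0.271 for SLR14 and 0.16 and 0.181 for poly(I:C). The replicate block changed no other call of a member. Signs turned only for changes that had not passed. Il12a with SLR14 (-0.01) was 0.14 under quantile scaling and with the replicate block, 0.11 without the high-erythroid libraries, 0.7 against naive, 0.41 against the combined control, and -0.16 to 0.11 with a replicate left out. With pppNS, Il12rb2 was 0.32 against naive and 0.08 against the combined control (-0.63 to 0.18 with a replicate left out), Tbx21 -0.41 and -0.19 (-0.09 to 0.36), and Ifngr2 0.11 and 0.01. Stat4 was 0.0 under quantile scaling and -0.12 against naive with SLR10, and -0.1, -0.17 and, against the combined control, -0.05 with SLR14 (-0.07 to 0.52 with a replicate left out). Il18r1 with SLR14 was -0.16 to 0.5. Ifng between SLR14 and SLR10 (-0.04) was 0.23 with edgeR, 0.26 with DESeq2, 0.66 without the high-erythroid libraries, and -0.53 to 0.66 with a replicate left out. Between pppNS and the SLRs, Il12b was -0.39 to 0.73 and Il18 -0.15 to 0.56. Over all genes, calls went from 603 to between 0 and 1547 for pppNS against vehicle, from 491 to between 32 and 1452 for poly(I:C) against the SLRs, from 7 to between 0 and 99 for vehicle against naive, from 5518 to 9903 for SLR10 with only the groups compared, and from 0 to 1 for SLR14 against SLR10. Quantile scaling moved the median of all genes with poly(I:C) from 0.066 to -0.095. With 2 vehicle libraries, leaving out 1 assumes that the other varies like the remaining groups.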
